A study of Mus musculus with 41 samples.

Results

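The respiratory chain genes of Trp53-null mammary tumors were examined as a group of 85 genes among the 30175 named genes of the array. They were chosen by name alone, as the genes called Nduf (a, b, c, s or v with a number), Sdha to Sdhd, Uqcr, Cox4 to Cox8 and Atp5, and for each the probe with the brightest mean signal was used. By name, 37 belonged to complex I, 4 to complex II, 8 to complex III, 19 to complex IV and 17 to complex V. Each probe had to exceed a signal of 10 in Cy5 and in Cy3 on 80% of arrays or more, and 83 of the 85 genes passed, as did 20886 of all 30175. The 2 that did not pass were Cox7b2 and Cox8c, testis-type isoforms of complex IV subunits, whose tumor signal stood well above background on 2 and 4 of the 41 arrays.

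The respiratory chain lies in the inner mitochondrial membrane. Complex I (NADH dehydrogenase) and complex II (succinate dehydrogenase) pass electrons to ubiquinone, complex III carries them on to cytochrome c, complex IV (cytochrome c oxidase) hands them to oxygen, and complex V (ATP synthase) uses the proton gradient so formed to make ATP. Most subunits are encoded in the nucleus and are made in every tissue, while a few complex IV subunits have isoforms restricted to heart, skeletal muscle, brown fat, lung or testis. Some names fall under the rule without being subunits: Cox4nb is a neighbour of Cox4i1, Atp5s and Atp5sl are related to an ATP synthase coupling factor, and Ndufa4l2 is a relative of Ndufa4 that is known to respond to low oxygen. Ndufa4 itself carries a complex I name but is known as a complex IV subunit.

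Each tumor grew from mammary tissue of a Trp53-null BALB/c donor, transplanted into the cleared fat pad of a wild-type female BALB/c host of 3 weeks, so every group shares the loss of Trp53 in the graft and a normal host stroma. Fragments from 4 donors were used. Hosts ate a low fat diet with 10% of its energy from fat (LFD), a high fat diet with 60% (HFD), or changed at 10 weeks of age from HFD to LFD (HFD-LFD) or from LFD to HFD (LFD-HFD). The morphology label of 29 tumors, p53 variable, was read here as epithelial, and the other 12 are labelled spindle-like. Tumors that arose before 52 weeks were early and the others late. The 29 epithelial tumors (8 LFD, 8 HFD, 7 HFD-LFD and 6 LFD-HFD) comprised 14 early and 15 late ones, and the 12 spindle cell tumors, 3 from each regimen, comprised 3 early and 9 late ones. RNA of each tumor was hybridised on a 2-color array together with Universal Mouse Reference RNA, a pool from 11 mouse cell lines, and a value below is the log2 ratio of a gene's processed signal in the tumor over the reference, so that 0 stands for equal signal and -1 for 2-fold less in the tumor.

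The sample labels place the tumor in Cy5, which was followed here, whereas the study's methods place the reference there. The Y-linked genes Ddx3y and Eif2s3y, absent from female tumors, gave more Cy3 than Cy5 signal on each of the 41 arrays, with mean log2 ratios from -8.08 to -3.63, and each array correlated across genes with the mean of the others at r between 0.74 and 0.956. The Trp53 tumor signal stood well above background on 41 arrays, at log2 ratios from -2.25 to 3.74, in bulk tumors that hold wild-type host cells, and whether its probe lies in the deleted part was not checked. All 12 spindle arrays came from 1 scan session, on a scanner and with an older software version used for no epithelial array, so the effects of histology and of scanning cannot be told apart. The early HFD epithelial tumors 60L and 42L4B were scanned in a session apart from the other 27 epithelial ones, and for 60L, with 22.02% of its spots marked as outliers, 4 of the 83 genes had a value, for 42L4B 65. Most epithelial values therefore rest on 28 tumors. In the deposited matrix, the columns of the HFD tumors 40R4A (early), 57R (late) and 65R (early) matched the scanner files of 57R, 65R and 40R4A best, at r = 0.968, 0.965 and 0.966, and the scanner files' own labels were kept here, so the onset given for these 3 is uncertain.

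Nearly all respiratory chain genes were dimmer in the tumors than in the reference pool. The mean log2 ratio over the 41 tumors was under 0 for 81 of the 83 genes, against 39.96% of all tested genes, and its median was -0.94 against 0.22. The reference is made of cultured lines, and the ratio describes each gene against that pool and not one gene against another. Averaged over its ubiquitous subunits, complex II lay lowest, with a mean of -1.22 ± 0.15 (SD, n = 28) in epithelial tumors, followed by complex III at -1.08 ± 0.17, complex I at -0.86 ± 0.15, complex IV at -0.83 ± 0.21 and complex V at -0.74 ± 0.16. These means take the complexes by name, so that of complex I, over 36 genes, includes Ndufa4. Complex II was the lowest of the 5 in 22 of 28 epithelial tumors and complex V the highest in 17. In the spindle tumors complex III was the lowest in 7 of 12 and complex V the highest in 11.

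The genes varied less between tumors than most genes did. The median SD over epithelial tumors was 0.34 for the 83 genes and 0.56 for all tested genes. The genes compared were not matched for signal, so the part of brightness in this was not tested. The steadiest were Ndufv1 (SD 0.19), which carries the NADH binding site of complex I, Sdhc (0.19), a membrane anchor of complex II, Ndufs3 (0.19), a core subunit of complex I, and Ndufb6 (0.20) and Ndufa12 (0.21), accessory subunits of complex I. The most variable were Ndufa4 (SD 1.37, at the 95.96th percentile of all genes), Ndufa5 (0.80), Cox6b2 (0.73), Atp5s (0.70) and Cox4i2 (0.65).

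Ndufa4 had the widest spread of the 83 genes over epithelial tumors. Its lowest log2 ratio in an epithelial tumor was -4.50, in the late LFD tumor 13L, the median was 0.00 and the highest was 2.95, in the early LFD tumor 22R. In spindle tumors the lowest was -2.39 in M63L, the median -0.46 and the highest 2.30 in M128L. All spindle values lay within the epithelial range, and high tumors (2.42 in 65R, 2.10 in 80L) occurred under several regimens. Ndufa4 was read by a single probe on the array, shown here because it carries this wide range, at chr6:11850423-11850482 (mm9, minus strand).
Ndufa4 probe: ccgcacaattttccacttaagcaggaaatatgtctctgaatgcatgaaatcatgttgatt

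**Figure D1:**
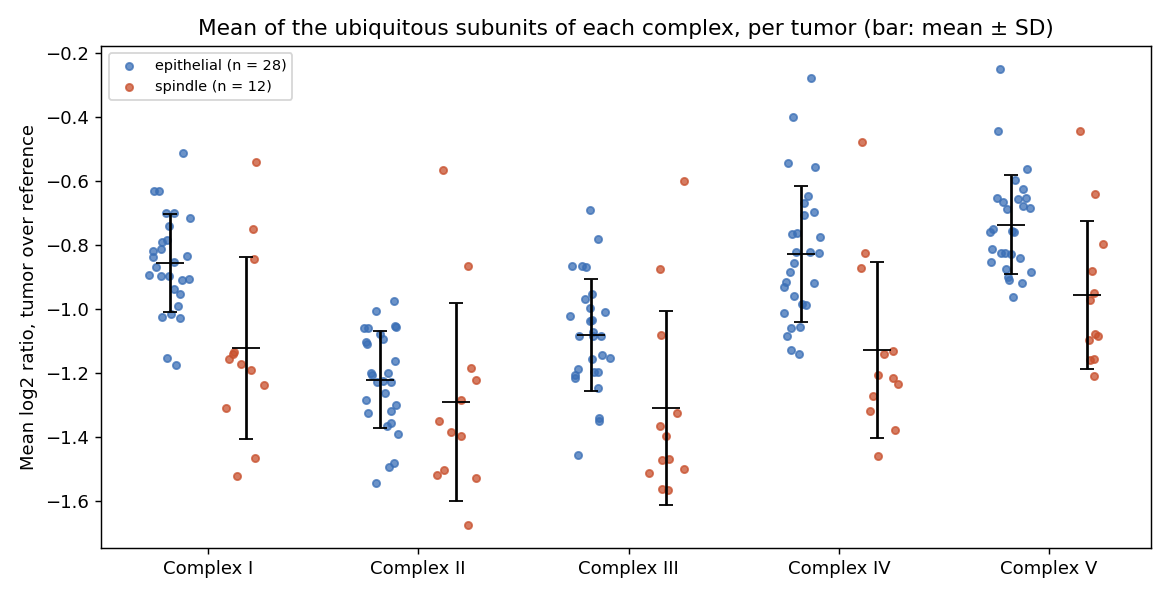
The mean log2 ratio of tumor over reference for the ubiquitous subunits of each complex, taken by name, with 1 point per tumor, blue for 28 epithelial and red for 12 spindle tumors, and a black bar with whiskers for mean ± SD. Spindle tumors centred lower in each complex, their means lay between -1.31 and -0.96, and the groups overlapped in every one.

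Spindle tumors were compared with epithelial tumors to ask whether histology goes with the level of the chain. At an adjusted p under 0.05, 26 of the 83 genes had a lower ratio in spindle tumors, beside 12.2% of all 20886 genes tested, and 2 had a higher ratio, beside 7.93%. The median difference was -0.28 for the 83 genes and -0.07 for all genes, and 69 of the 83 differences lay below 0. The genes with a lower ratio numbered 13 of 37 in complex I, 0 of 4 in complex II, 2 of 8 in complex III, 4 of 17 in complex IV and 7 of 17 in complex V, and the 2 with a higher ratio were Sdhc of complex II and Atp5d of complex V. For no gene of the 83 did the 2 groups separate without overlap, which 0.091% of all genes did.

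The reference channel, which received the same kind of RNA on every array, moved with histology as well. After each array was centred on its median, the reference signal alone differed past the same threshold between the spindle and the epithelial arrays for 25 of the 83 genes upward and 15 downward, beside 13.4% and 22.3% of all genes. The tumor signal alone was lower in spindle arrays for 13 of the 83 and higher for 1, beside 13.1% and 6.38% of all genes, so the share of genes lower there was near that of all genes. Of the 26 genes with a lower ratio, 7 had a lower tumor signal past the threshold, 14 a higher reference signal past the threshold, and none both. The median difference over these 26 was -0.21 in the tumor channel and 0.20 in the reference channel. Whether scanning, software or the batch of reference RNA had a part in these differences was not tested.

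**Figure D2:**
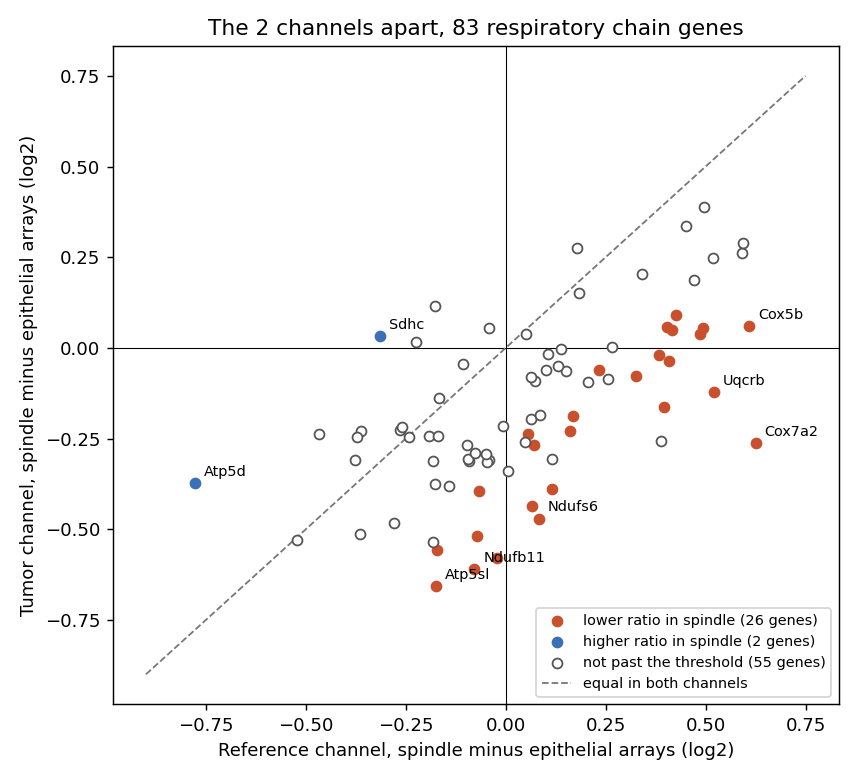
Spindle minus epithelial arrays in the tumor channel (vertical, log2) against the same in the reference channel (horizontal, log2), each array centred on its median, with 1 point per gene and a dashed line where both are equal. Red points (26 genes with a lower ratio) lie below the line through a fall on the vertical axis, as Ndufb11 at -0.61, through a rise on the horizontal axis, as Cox5b at 0.61, or some of each.

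Ndufb11, an accessory subunit of the membrane arm of complex I, was among the 7 with a lower tumor signal. Its log2 ratio lay between -1.31 and -0.41 (median -0.94) in epithelial tumors, and between -2.16 and -0.74 (median -1.49) in spindle tumors. The groups overlapped, and 10 of 12 spindle tumors lay below the epithelial median. The difference was -0.55 ± 0.12 (SE), or 1.46-fold, with an adjusted p of 0.00079, and came to -0.61 ± 0.13 in the tumor channel and -0.08 ± 0.09 in the reference channel.

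Ndufs6, an iron-sulfur protein fraction subunit of complex I, lay between -0.995 and 0.27 (median -0.47) in epithelial and between -1.63 and -0.38 (median -0.998) in spindle tumors. It was below the epithelial median in 11 of 12 spindle tumors, with a difference of -0.57 ± 0.12 (SE, adjusted p = 0.00108) and a tumor channel difference of -0.47 ± 0.13. The other 5 of these 7 were Ndufa7 and Ndufa11 of complex I (ratio differences -0.35 and -0.40), Atp5e and Atp5j2 of complex V (-0.46 and -0.52), and Atp5sl (-0.50), which is no subunit. Their tumor channel differences lay between -0.66 for Atp5sl and -0.39 for Atp5j2.

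Cox7a2, the ubiquitous form of a small complex IV subunit, had the largest difference of all 83. Its log2 ratio lay between -1.12 and 0.43 (median -0.45) in epithelial tumors, and between -2.11 and -0.44 (median -1.38) in spindle tumors. All but 1 of the 12 spindle tumors lay below the epithelial median, and the difference was -0.90 ± 0.15 (SE), 1.87-fold, with an adjusted p of 5.19e-05. The reference channel held the larger portion of it, at 0.63 ± 0.10, against -0.26 ± 0.14 in the tumor channel, which did not pass the test (adjusted p = 0.195).

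Cox5b, a zinc-binding subunit of complex IV, also had its difference mainly in the reference channel. It lay between -1.51 and -0.16 (median -0.93) in epithelial and between -1.81 and -0.85 (median -1.51) in spindle tumors, a difference of -0.56 ± 0.10 (SE, adjusted p = 8.35e-05). Its tumor signal differed by 0.06 ± 0.11 and its reference signal by 0.61 ± 0.09. Uqcrb, the ubiquinone-binding protein of complex III (-0.66 ± 0.13), and Ndufa9, an accessory subunit of complex I (-0.57 ± 0.12), also had reference differences, of 0.52 and 0.40, that exceeded those of the tumor channel, -0.12 and -0.16. The probes of a gene with each pattern follow, with their places on mm9: Ndufb11 at chrX:20192453-20192512 (minus strand) and Cox5b at chr1:36750171-36750230 (plus strand).
Ndufb11 probe: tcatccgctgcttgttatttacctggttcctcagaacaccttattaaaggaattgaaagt
Cox5b probe: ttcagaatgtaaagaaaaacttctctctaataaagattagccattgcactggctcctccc

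**Figure D3:**
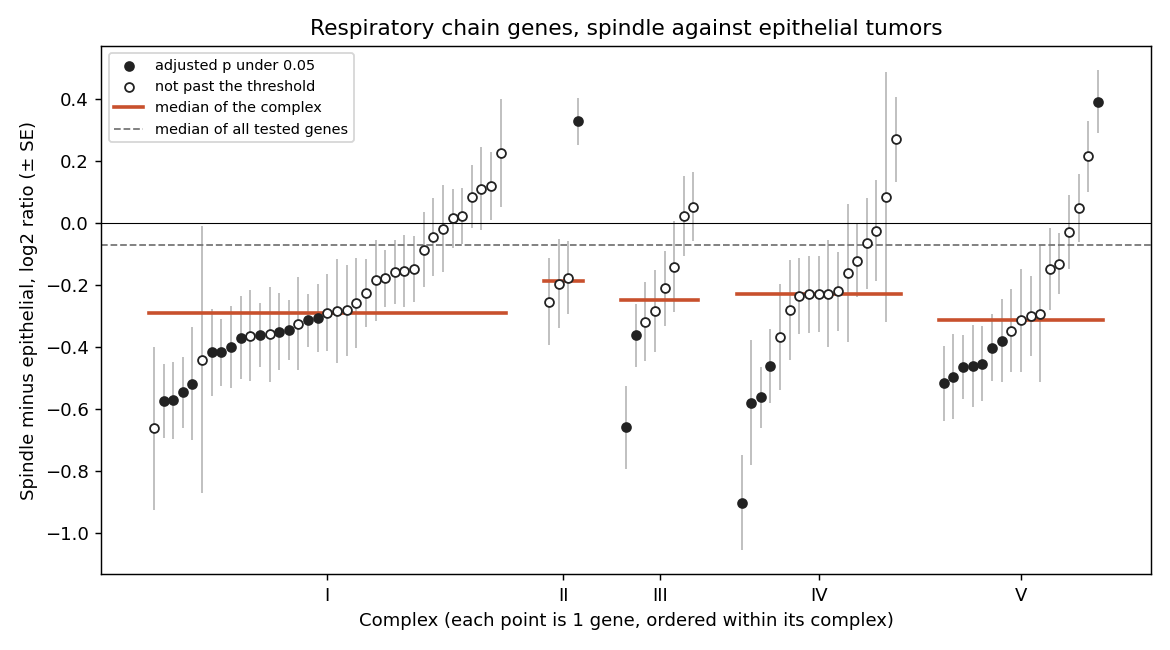
Spindle minus epithelial difference in log2 ratio (vertical, ± SE) for each of the 83 genes, ordered within complexes I to V, with filled points for an adjusted p under 0.05, a red line at each complex's median and a dashed line at the median of all tested genes, -0.07. The medians of complexes I to V were -0.29, -0.19, -0.25, -0.23 and -0.31.

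In complex I, the other genes with a lower ratio were Ndufb2, Ndufv2, Ndufc2, Ndufa1, Ndufb5, Ndufc1, Ndufb6 and Ndufs3, at differences from -0.52 to -0.31. The catalytic core was mixed: Ndufs1, the largest subunit with iron-sulfur clusters, differed by 0.02 ± 0.10 (SE, adjusted p = 0.932), Ndufv1 by 0.02 ± 0.09 (adjusted p = 0.888) and Ndufb8, often used as a sign of assembled complex I, by -0.36 ± 0.15 (adjusted p = 0.0721), none past the threshold. Ndufv2, the partner of Ndufv1 in the NADH-binding module, had a lower ratio, -0.42 ± 0.11 (adjusted p = 0.00568), with a reference difference of 0.38 and a tumor difference of -0.02.

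In complex II, Sdhc had a higher ratio in spindle tumors. It lay between -1.52 and -0.54 (median -1.04) in epithelial and between -0.93 and -0.39 (median -0.81) in spindle tumors, and every spindle tumor lay above the epithelial median. The difference of 0.33 ± 0.08 (SE, adjusted p = 0.00216) came with a reference difference of -0.31 and a tumor difference of 0.03. Sdha, which binds succinate, differed by -0.20 ± 0.14 (adjusted p = 0.352) and Sdhb, the iron-sulfur subunit, by -0.25 ± 0.14 (adjusted p = 0.202). Probes of Sdhb and of Sdhc gave differences of both signs, and so did those of Ndufb5 in complex I.

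In complex III, Uqcrc2, a core protein, had a lower ratio, -0.36 ± 0.10 (SE, adjusted p = 0.0105), and Uqcrc1, the other core protein, differed by 0.05 ± 0.11 (adjusted p = 0.778). Uqcrfs1, the Rieske iron-sulfur protein, differed by -0.32 ± 0.13 (adjusted p = 0.0695), with 0.59 in the reference and 0.29 in the tumor channel. In complex IV, Cox7b also had a lower ratio (-0.46 ± 0.12, adjusted p = 0.00545), whereas Cox4i1, the ubiquitous form of the regulatory subunit 4, differed by -0.02 ± 0.16 (adjusted p = 0.939) and Cox5a by -0.24 ± 0.12 (adjusted p = 0.173).

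In complex V, the others with a lower ratio were Atp5j, Atp5g3, Atp5c1 and Atp5k, at differences from -0.46 to -0.38. The alpha and beta subunits did not pass the test: Atp5a1 (alpha) differed by -0.30 ± 0.13 (SE, adjusted p = 0.0951) and Atp5b (beta) by -0.03 ± 0.12 (adjusted p = 0.893). Nor did Atp5o, of the stalk, at -0.15 ± 0.13 (adjusted p = 0.449). Atp5d, the delta subunit of the rotor, had a higher ratio, 0.39 ± 0.10 (adjusted p = 0.00568), yet its signal was lower in spindle arrays in both channels, by 0.78 in the reference and 0.37 in the tumor channel, so the higher ratio came with a lower tumor signal.

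The labels were read against marker genes, beside 7.93% of all genes with a higher and 12.2% with a lower ratio in spindle tumors. Of 11 mesenchymal genes 5 were higher in spindle tumors (Twist2, Pdgfrb, Vim, Snai1 and Zeb1), and of 9 epithelial keratin, claudin and adhesion genes none was called, 3 of them reached an unadjusted p under 0.05, and the median difference was -0.67, while the mean over the list ran from -1.86 to 1.82 in spindle and from 0.27 to 1.98 in epithelial tumors. Several tumors labelled spindle thus had epithelial markers as high as epithelial tumors. Of 4 endothelial genes 2 were higher (Kdr and Pecam1), of 6 cell division genes 2 were lower (Ccnb1 and Pcna), of 12 skeletal muscle genes 2 were lower (Mb and Mylpf), and of 6 leukocyte genes none was called or reached an unadjusted p under 0.05. In bulk tumor RNA, fewer cells of a type and less RNA per cell cannot be told apart, and the part of these cell types in the ratios was not tested.

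Some spindle tumors stood apart from the rest in adipocyte genes. The mean log2 ratio over the 7 adipocyte markers that passed the filter was 3.47 in the late LFD-HFD tumor M76R and 1.84 in the late LFD tumor M32L, and -3.18 or less in the other 10. M76R also had the highest mean of each of the 5 complexes among spindle tumors, at -0.52 over the 74 ubiquitous subunits, against a median of -1.21. M32L had the next highest mean over these subunits, -0.80. Without M76R and M32L, 42 of the 83 genes had a lower ratio and 2 a higher one, beside 2804 and 1927 of all genes tested, and the median difference was -0.37. This fit was chosen after seeing the data, and leaving out the spindle tumors of highest mean by itself lowers the spindle mean.

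The muscle and brown fat isoforms Cox6a2, Cox8b and Cox7a1 of complex IV were far below the reference in nearly every tumor. Cox6a2, the heart and skeletal muscle form of subunit 6A, lay between -5.77 and -4.12 (median -5.36) in epithelial and between -6.12 and -3.95 (median -5.76) in spindle tumors, on average 36.9-fold below the reference in the former. Cox8b, the heart, muscle and brown fat form of subunit 8, lay between -7.24 and -4.28 (median -6.02) in epithelial and between -7.18 and -1.29 (median -6.75) in spindle tumors. Cox7a1, the muscle and brown fat form of subunit 7A, lay between -4.96 and -3.53 (median -4.18) in epithelial and between -5.22 and -2.56 (median -4.67) in spindle tumors. Their ubiquitous partners were much nearer to the reference, with epithelial medians of -0.57 for Cox6a1, -0.60 for Cox8a and -0.45 for Cox7a2. None of the 3 isoforms differed between spindle and epithelial tumors past the threshold (adjusted p of 0.121 for Cox6a2, 0.91 for Cox8b and 0.369 for Cox7a1).

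Some of the highest values of these isoforms lay in tumors with high levels of markers of muscle or fat. Cox8b was -1.29 in M32L and -2.01 in M76R and at most -5.94 in the other 10 spindle tumors. Cox7a1 was highest in M32L, which also had the highest mean of the brown adipocyte markers that passed the filter, -1.96, against at most -3.88 in any other tumor with values. The next values of Cox7a1 were -3.53 in the late LFD epithelial tumor 27L4A and -3.55 and -3.63 in late HFD-LFD epithelial tumors (replicates 4 and 1), where the brown adipocyte mean was -5.36, -3.88 and -5.41 and the adipocyte mean -4.27, -0.88 and -4.09. Cox6a2 was highest in M76R at -3.95, in the late LFD epithelial tumor 19R at -4.12 and in the early LFD-HFD epithelial tumor 82L at -4.15. The mean over 12 skeletal muscle markers was -3.24, -2.78 and -2.97 in those 3 tumors, and it ran from -5.16 to -2.78 over 28 epithelial and from -5.15 to -3.24 over 12 spindle tumors. The part of muscle or fat in the isoform levels was not tested.
Cox6a2 probe, chr7:135349160-135349219 (mm9, minus strand): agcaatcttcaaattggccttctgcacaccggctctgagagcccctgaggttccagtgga
Cox8b probe, chr7:148084852-148084911 (mm9, minus strand): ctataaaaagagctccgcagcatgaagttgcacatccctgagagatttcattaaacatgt

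**Figure D4:**
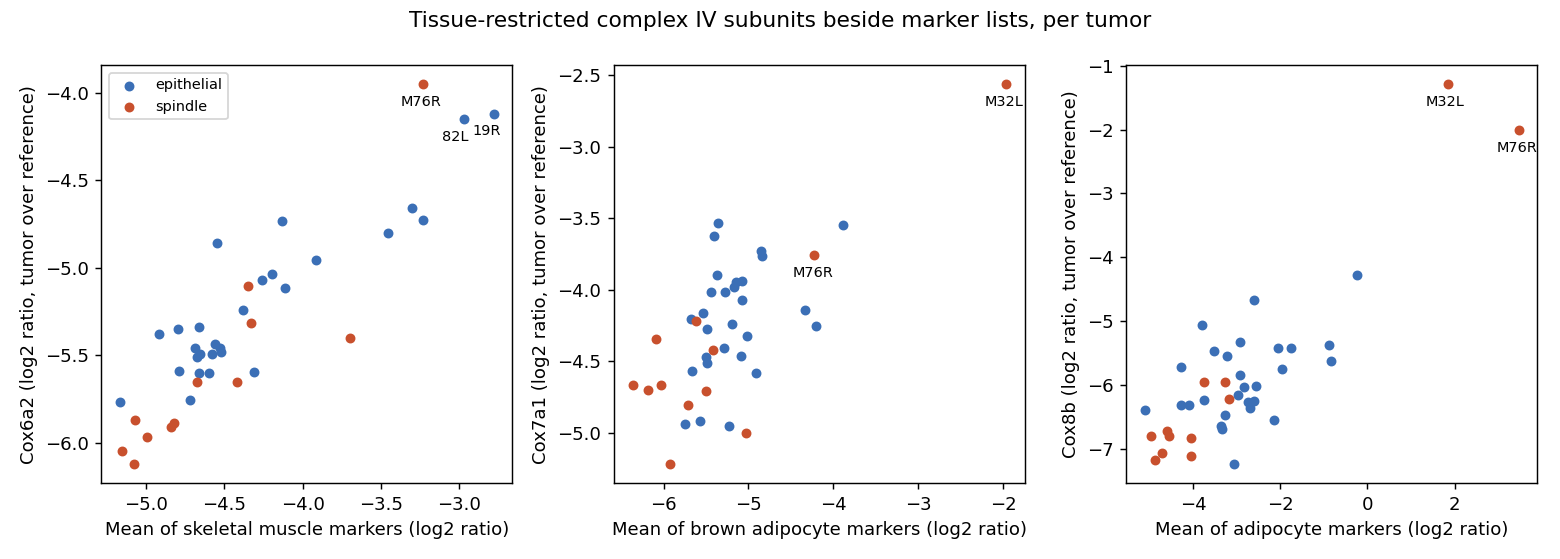
The log2 ratio of Cox6a2 against the mean of skeletal muscle markers, of Cox7a1 against brown adipocyte markers and of Cox8b against adipocyte markers, with 1 point per tumor, blue for epithelial and red for spindle, tumor 60L left out. M76R and M32L stand apart on the adipocyte axis at 3.47 and 1.84.

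Cox4i2, the lung form of subunit 4, was the isoform nearest the reference. It lay between -1.67 and 1.37 (median -0.55) in epithelial and between -1.55 and -0.10 (median -1.11) in spindle tumors. It had a lower ratio in spindle tumors, by -0.58 ± 0.20 (SE, adjusted p = 0.0369), with a difference of -0.58 ± 0.26 in the tumor channel (adjusted p = 0.104) and -0.02 in the reference channel. It passed in 5 of the 12 fits that left out 1 spindle tumor. Cox6b2, a testis form, lay between -2.91 and 0.44 in epithelial tumors, with the highest value in the late HFD tumor 57R, and from -2.80 to -1.46 in spindle tumors (adjusted p = 0.65). Ndufa4l2 lay between -2.50 and -1.10 in epithelial and from -2.69 to -0.49 in spindle tumors, highest in M84R, M33R and M32L, and did not pass the test (adjusted p = 0.38).

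Early and late tumors were compared to ask whether latency goes with the chain. In epithelial tumors none of the 83 genes was called at an adjusted p under 0.10, beside 0.144% of all genes. At an unadjusted p under 0.05 there were 11 of 83, or 13.3%, beside 13.2% of all genes, and the median difference of early minus late was -0.12 against 0.01 for all. With the slide as a fixed block, which rests on the 12 tumors of 3 slides that held both, it was -0.002, and with the matrix labels for the 3 HFD tumors -0.10. The SAM statistic that the study's methods use called 3 genes lower in early tumors, Uqcr11, Atp5j2 and Atp5k, or 3 of 83 beside 2.12% of all genes in either direction. These were also the 3 with the smallest limma p. Uqcr11, a small subunit of complex III, lay between -1.49 and -0.71 (median -1.12) in early and between -1.05 and -0.21 (median -0.91) in late epithelial tumors, which overlapped, a difference of -0.34 ± 0.11 (SE, adjusted p = 0.19). Atp5j2 (subunit f of ATP synthase) differed by -0.33 ± 0.11 (adjusted p = 0.204) and Atp5k (subunit e) by -0.37 ± 0.12 (adjusted p = 0.208).

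Averaged over the 74 ubiquitous subunits, early epithelial tumors had a log2 ratio of -0.93 ± 0.13 (SD, n = 13) and late ones of -0.83 ± 0.15 (SD, n = 15). In spindle tumors the 3 early ones lay at -1.22, -1.41 and -1.11, and the 9 late ones lay between -1.36 and -0.52 (median -1.19), so the groups overlapped. None of the 83 genes was called there, beside 0% of all genes, and none reached an unadjusted p under 0.05, beside 2.03% of all genes. The smallest p was that of Ndufc1, -0.45 ± 0.22 (SE, adjusted p = 1). The test of whether onset acted differently in the 2 histologies called none of the 83, beside 0.00479% of all genes, with none at an unadjusted p under 0.05.

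The diets before and after 10 weeks were compared to ask whether pubertal or adult fat goes with the chain. Of the 8 epithelial slides 7 held 1 regimen, so in epithelial tumors the effects of diet and of slide can hardly be told apart. Pubertal HFD against pubertal LFD gave no call among the 83 over all 41 tumors, beside 0.00958% of all genes, or among the epithelial tumors, beside 0%. At an unadjusted p under 0.05 there were 1 and 3 of 83, beside 6.95% and 9.87% of all genes, and the SAM statistic over all tumors also called 0 of the 83. Ndufs4, an accessory subunit of complex I, had the smallest p in both, with a difference of -0.24 ± 0.09 (SE, adjusted p = 0.617) over all tumors and -0.26 ± 0.11 (adjusted p = 0.434) over epithelial ones. Adult HFD against adult LFD in epithelial tumors gave none either, beside 0%, with 3 of 83 at an unadjusted p under 0.05, beside 4.00% of all genes.

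**Figure D5:**
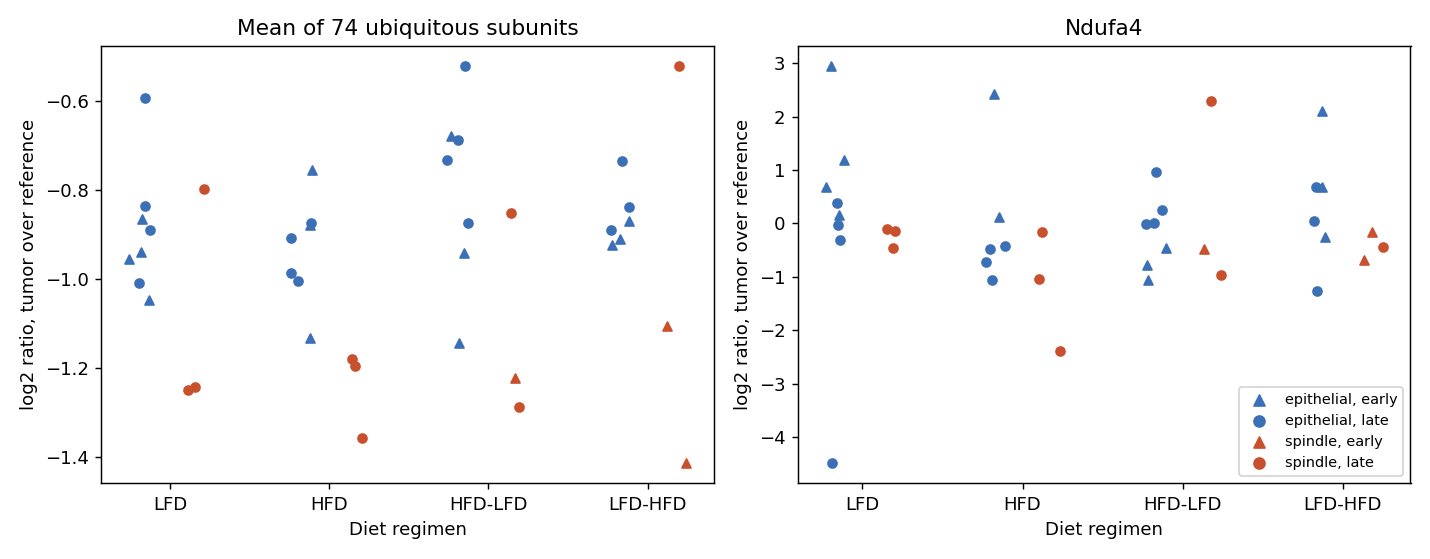
The log2 ratio, tumor over reference, by diet regimen for the mean of 74 ubiquitous subunits (left) and for Ndufa4 (right), with 1 point per tumor, blue for epithelial and red for spindle, triangles for early and circles for late onset. The regimens overlap on the left, and Ndufa4 reaches from -4.50 to 2.95 within the LFD epithelial tumors alone.

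Across the 4 regimens, each largely on its own slides, the epithelial means over the 74 subunits were close to each other. They were -0.89 ± 0.14 (SD, n = 8) under LFD, -0.93 ± 0.12 (n = 7) under HFD, -0.80 ± 0.21 (n = 7) under HFD-LFD and -0.86 ± 0.07 (n = 6) under LFD-HFD. A test over the 4 regimens called none of the 83, beside 0.474% of all genes, with 5 of 83 at an unadjusted p under 0.05, beside 12.95%. In spindle tumors it called none, beside 0%, and none of the 83 reached an unadjusted p under 0.05, beside 3.74%, with 3 tumors per regimen.

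None of the 6 pairs of regimens in epithelial tumors gave a call among the 83. The shares of all genes called were 0% for HFD against LFD, 1.25% for HFD-LFD against LFD, 0% for LFD-HFD against LFD, 0.0287% for HFD-LFD against HFD, 0.263% for LFD-HFD against HFD and 0% for LFD-HFD against HFD-LFD. At an unadjusted p under 0.05 there were 1, 7, 3, 7, 2 and 1 of 83 in the same order, beside 9.403%, 13.54%, 6.545%, 13.37%, 10.38% and 5.07% of all genes. The median differences of HFD-LFD from LFD and from HFD were 0.11 and 0.13, against -0.07 and -0.04 for all genes, and these comparisons share the HFD-LFD tumors.

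Cox7a2 had the smallest p in both of those pairs. It lay between -1.12 and -0.15 (median -0.72) under LFD, between -1.11 and -0.28 (median -0.69) under HFD, between -0.53 and 0.43 (median -0.09) under HFD-LFD and between -0.64 and -0.16 (median -0.30) under LFD-HFD. The HFD-LFD tumors overlapped with all of the others and shared no slide with them. The difference of HFD-LFD from LFD was 0.60 ± 0.18 (SE, adjusted p = 0.124) and from HFD 0.64 ± 0.18 (adjusted p = 0.165). The first of these passed under 5 of the alternatives, at 0.60 to 0.68, among them normexp with loess, the deposited matrix and the fit without tumors 42L4B and 60L.

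Sdha had the smallest p for LFD-HFD against LFD. It lay between -1.35 and -0.06 (median -0.95) under LFD and between -1.87 and -1.10 (median -1.36) under LFD-HFD, a difference of -0.61 ± 0.18 (SE, adjusted p = 0.468). Whether pubertal HFD acted differently in spindle and epithelial tumors was tested as well, and none of the 83 was called, beside 0.445% of all genes, with 9 of 83 at an unadjusted p under 0.05, beside 12.2%. The smallest p was that of Ndufa4l2, at -1.11 ± 0.30 (SE, adjusted p = 0.122) for spindle minus epithelial. In spindle tumors it was -2.22, -2.43 and -1.87 under HFD and -2.69, -2.55 and -1.95 under HFD-LFD, against -2.04, -0.98 and -0.79 under LFD and -1.21, -0.49 and -2.25 under LFD-HFD, so the highest 4 were all in tumors from pubertal LFD and the groups overlapped. The median over the 83 was -0.17 against 0.07 for all genes, and 0.05 without M32L and M76R. It passed under 4 of the alternatives, normexp with loess, centring, the deposited matrix and the fit without tumors 42L4B, 60L and M86R, at -1.34 to -1.21. Normexp with loess, under which 11.3% of all genes passed, also called Cox8b, Ndufv3 and Ndufv1.

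Other mitochondrial and metabolic genes were set beside the chain for spindle against epithelial tumors. Of all genes tested, 12.2% had a lower and 7.93% a higher ratio in spindle tumors. The values below are ratios too, and the reference channel also moved with histology. Of 76 genes of the mitochondrial ribosome, 16 were lower and 3 higher, with a median of -0.14, and Mrpl44 (-0.54 ± 0.09, SE) and Mrpl28 (0.68 ± 0.11) had the smallest p. Of 13 genes of the citric acid cycle, which feeds electrons to the chain, 1 was lower (Idh3a, -0.34 ± 0.11) and 2 higher (Dlst, 0.48 ± 0.11, and Idh3b, 0.34 ± 0.10), with a median of -0.02. Of the 25 assembly factors that passed the filter, 2 were lower (Acad9 and Ndufaf1, both for complex I) and 1 higher (Cox16). Of 11 regulators of mitochondrial biogenesis only Tfb2m, a mitochondrial transcription factor, was called, lower by -0.44 ± 0.11, and of 7 uncoupling proteins and electron carriers only Cycs, cytochrome c, lower by -0.52 ± 0.14. Of 16 glycolytic genes 3 were higher (Pfkl, 0.81 ± 0.17, Gapdh, 0.46 ± 0.14, and Pkm2, 0.60 ± 0.20) and 1 lower (Hk1, -0.29 ± 0.10), with a median of 0.35.

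The promoters of the members were searched for short motifs of factors known to act on respiratory genes. RefSeq promoters on GRCm38.p6, from 250 bases before to 50 after a gene's start, were found for 69 of the 85 genes and for 13122 of the 20886 tested genes. The core of the NRF1 site, GCATGCGC, lay on either strand in 10 of 69 (14.5%) and in 4.49% of all tested promoters, that of YY1, AAGATGGC, in 10 (14.5%) and 3.91%, and that of ETS factors, CCGGAAGT, in 5 (7.25%) and 6.74%. Among the genes with a lower ratio in spindle tumors, 2 of 23 had the NRF1, 5 the YY1 and 1 the ETS core, and among the other 46 these were 8, 5 and 4. The promoters of 2 of the 7 genes with a lower tumor signal are shown, with the motif in capitals: Ndufa11 (chr17:56717512-56717811, plus strand), where the NRF1 core overlaps its own reverse complement, and Ndufs6 (chr13:73328433-73328732, minus strand), with the YY1 core.
Ndufa11 promoter: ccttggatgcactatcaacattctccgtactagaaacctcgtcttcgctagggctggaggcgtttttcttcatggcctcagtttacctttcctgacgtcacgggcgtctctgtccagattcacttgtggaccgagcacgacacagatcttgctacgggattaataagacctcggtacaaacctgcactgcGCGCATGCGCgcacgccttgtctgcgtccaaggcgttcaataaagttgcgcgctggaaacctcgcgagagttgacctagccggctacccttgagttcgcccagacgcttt
Ndufs6 promoter: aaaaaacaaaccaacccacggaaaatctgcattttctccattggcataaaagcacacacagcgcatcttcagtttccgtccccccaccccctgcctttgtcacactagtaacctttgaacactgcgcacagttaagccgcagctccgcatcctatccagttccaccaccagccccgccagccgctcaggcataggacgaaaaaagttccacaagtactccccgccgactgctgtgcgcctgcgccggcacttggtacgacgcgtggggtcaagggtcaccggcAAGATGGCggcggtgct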

How the data were processed

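Tumor RNA and reference RNA were hybridised on 41 2-color Agilent arrays. The authors deposited scanner files whose processed signals are intensity values, background-subtracted and dye-normalized by Agilent Feature Extraction (8.5.1.1 per the labels, 10.5.1.1 and 11.0.1.1 per the file headers), and a matrix of log2 ratios, whose values the authors deposited without stating the centring. Here log2 of Cy5 over Cy3 was taken, control and outlier spots were left out, spots of a probe were averaged, and the brightest probe of a gene was kept where the signal passed 10 in both channels on 80% of arrays. Groups were compared with limma 3.58.1 in R 4.3.3, two-sided, with Benjamini-Hochberg adjustment over all genes at 0.05 for histology and 0.10 for the other comparisons. Genes given by name were a fixed core, the isoforms with most of their partners, the called genes of largest difference, and the 5 of largest and smallest SD. Among comparisons without a call, up to 3 genes of smallest p were named for some and none for others. The members and lists were chosen with earlier results of these data known. A tumor is the replicate, and 3 mouse numbers occur on 2 tumors each, so those may not be independent. The number of arrays limits the precision. Scripts were tested on simulated data.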

Additional observations from a re-analysis of the deposited data

Results flagged for a closer look

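In 1 of 40 groups of 4 to 10 tumors examined, a complex's mean lay apart from the rest. The late LFD epithelial tumor 13L had a complex V mean of -0.25, and the other 7 LFD epithelial tumors ran from -0.90 to -0.66, so that its gap to the nearest took up 0.623 of the range. About 1 in 20 such groups is flagged by chance alone. The same tumor had the lowest Ndufa4, at -4.50.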

How the results depend on the processing

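For spindle against epithelial tumors, 26 genes were lower and 2 higher, beside 12.2% and 7.93% of all genes. Leaving out 1 spindle tumor at a time gave 18 (without M84R) to 35 (without M76R) lower and 2 to 2 higher. The lower count was 15 and the higher 1 among late tumors only. Without M32L, M86R and M76R 45 were lower and 3 higher, beside 2772 and 1850 of all 20885 genes tested. That fit too leaves out M76R and M32L, the spindle tumors of highest mean, which by itself lowers the spindle mean. Without M32L and M76R (chosen after seeing the data) 42 were lower. With the mean over all probes of a gene 1 was higher. In the tumor channel alone, also chosen after seeing the data, 13 were lower and 1 higher, beside 13.1% and 6.38% of all genes. The difference turned sign there for Atp5d (-0.37), Atp5g3 (0.056), Atp5j (0.037), Atp5k (0.05), Cox5b (0.061), Ndufb5 (0.057) and Ndufc1 (0.09). With the slide as a random block 18 were lower, and Atp5k, Cox4i2, Ndufa1, Ndufa11, Ndufb2, Ndufc1, Ndufc2 and Ndufs3 no longer passed. No share of all genes is given for the fits without 1 spindle tumor, late tumors, the probe mean or the random block. In the 12 fits without 1 spindle tumor, Ndufa1, Ndufc1 and Ndufs3 passed in 4, Cox4i2 in 5, Atp5k, Ndufb2 and Ndufc2 in 6 and Ndufa11 in 10, and the other called genes in all 12. Onset in epithelial tumors gave 3 genes by SAM. Pairs of regimens gave 1 gene (Cox7a2) under normexp with loess, the deposited matrix and without tumors 42L4B and 60L, and 0 to 1 when 1 tumor was left out (Cox7a2 without HFD-LFD late replicate 3 or HFD-LFD early replicate 2, Ndufb8 without 13L). Pubertal HFD by histology, whose median of -0.17 became 0.09 without M32L, M86R and M76R and 0.05 without M32L and M76R, gave 4 genes under normexp with loess and 1 (Ndufa4l2) under centring, the deposited matrix, and without 42L4B, 60L and M86R. The cause was not tested. The complex medians kept their sign under normexp, centring and the matrix. Of the 28 genes called for histology, 6 no longer passed under normexp with loess, 7 under centring and 7 under the deposited matrix. No share of all genes is given for these 3 settings either. Leaving out 1 tumor at a time gave 0 to 0 genes for onset in epithelial and in spindle tumors and for the 4 regimens in spindle tumors. No paired analysis was possible because replicate numbers were given in accession order, and any 2 groups compared share at most 1 mouse number (11 for early and late, 56 for epithelial and spindle).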
